A study of Homo sapiens with 4 samples.

Results

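The BH3-only genes are 8 members of the BCL2 family, BBC3 (PUMA), PMAIP1 (NOXA), BCL2L11 (BIM), BID, BAD, BIK, BMF and HRK, taken by symbol from the 20263 genes listed in the count tables. The set was chosen by the CPM of these genes in HJ-23 and DMSO libraries together with their family membership, after the level of BBC3 had been seen. All 8 had a count in every library and all 8 passed the filter on low counts. They were measured by RNA-seq in HCT116, an established human colorectal carcinoma line whose genotype is given as WT. The groups were cells after 24 hours with 30 µM HJ-23, which the submitters call a piperine derivative, and cells after 24 hours with 0.1% DMSO, the solvent. Each group had 2 libraries, and nothing in the labels says that these came from separate cultures, so the spread between them may be technical. The treatment field of the treated libraries reads HJ-25, and the name in the titles, HJ-23, is used here.

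BH3-only proteins are the sensors of the mitochondrial pathway of apoptosis. Each carries a short amphipathic BH3 helix that docks into the groove of the anti-apoptotic guardians such as BCL2, BCL2L1 (BCL-XL) and MCL1, and some of them also activate BAX and BAK1 directly, which then open the outer mitochondrial membrane. Some members are controlled mainly by transcription, as BBC3 and PMAIP1 are, and others mainly after translation, as BID is by caspase cleavage and BAD by phosphorylation.

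In these libraries 1 BH3-only mRNA, that of BBC3, stood far above the solvent level in treated cells. BMF was the member with the largest difference in the other direction, and the HJ-23 means of the remaining 6 lay between 0.991 and 1.40 times their DMSO means. The differences of the members are given as a description and no test is drawn from them.

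The stretch that defines the family is short, and it is shown for each member because it is what the 8 genes share. The sequences are the 36 coding bases around the BH3 core in GENCODE 29 transcripts (GRCh38), read 5′ to 3′ on the coding strand, and capitals mark the codons of the conserved leucine and of the small residue and aspartate that follow it after 3 residues.
BBC3, chr19:47226582-47226617, minus strand: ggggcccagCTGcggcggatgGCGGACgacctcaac
PMAIP1, chr18:59902664-59902699, plus strand: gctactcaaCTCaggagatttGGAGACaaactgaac
BCL2L11, chr2:111150094-111150129, plus strand: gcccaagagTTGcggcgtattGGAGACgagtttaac
BID, chr22:17739418-17739453, minus strand: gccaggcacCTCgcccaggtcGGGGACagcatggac
BAD, chr11:64271625-64271660, minus strand: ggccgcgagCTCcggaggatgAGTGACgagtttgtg
BIK, chr22:43127707-43127742, plus strand: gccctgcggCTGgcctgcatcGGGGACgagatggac
BMF, chr15:40104198-40104233, minus strand: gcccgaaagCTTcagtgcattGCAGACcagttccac
HRK, chr12:116881173-116881208, minus strand: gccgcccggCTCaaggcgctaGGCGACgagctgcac
Of the 36 bases, 7 were identical in all 8 genes, and these included the whole GAC aspartate codon. The BBC3 stretch shared between 17 bases (BID) and 22 bases (BCL2L11) with the other members. BID has another match to the core pattern upstream, which is not its known BH3 and is not shown. The counts are per gene, and not every coding transcript holds the core: it was present in 2 of 4 coding transcripts of the GENCODE basic set for BBC3, 1 of 2 for PMAIP1, 7 of 14 for BCL2L11, 4 of 11 for BID, 2 of 4 for BAD and 4 of 7 for BMF. BIK and HRK have 1 coding transcript each, with the core. Which transcripts the reads came from cannot be told from a count per gene.

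The 4 libraries held 34406649 and 34831207 counts (HJ-23 replicates 1 and 2) and 31120459 and 29769568 counts (DMSO replicates 1 and 2). Low counts were mostly even (69.6% to 72.3% of counts between 1 and 8, against 49.7% to 50.8% of counts above 50), as when both mates of a pair are counted. Levels are in CPM, the count scaled to the TMM-adjusted library size. Summed epithelial and intestinal markers, 7 genes, lay between 4049 and 5513 CPM in HJ-23 libraries and between 4094 and 4521 CPM in DMSO libraries, while VIL1 had at most 4 counts in a library. The 5 leukocyte markers summed to at most 0.639 CPM in any library, with PTPRC and CD3E at 0 counts in every library. The 4 endothelial markers summed to at most 1.63 CPM. Of the 5 fibroblast markers COL1A1 was present, at 55.1 and 60.0 CPM in HJ-23 and 63.3 and 61.1 CPM in DMSO, while DCN and COL1A2 were at 0 counts in every library. The libraries also differed along transcript GC content. Tested genes were split into 10 bins of GC content. From the lowest bin to the highest, the median log2 ratio of HJ-23 replicate 2 over HJ-23 replicate 1 ran from -0.43 to 0.32. That of DMSO replicate 2 over DMSO replicate 1 went from 0.11 to -0.11, with its highest value, 0.15, in the bin at 42.7% GC. The median log2 fold change of HJ-23 over DMSO ran between -0.15 and 0.23 over the same bins. A second set of values, with each library's smooth trend over GC content and transcript length removed, is therefore given beside the first.

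BBC3 (ENSG00000105327) encodes PUMA, which binds all the main guardians. It had 3795 and 5614 counts in HJ-23 libraries, against 717 and 596 counts in DMSO libraries. In scaled units these were 107 and 163 CPM in HJ-23 and 23.1 and 20.4 CPM in DMSO. Both treated libraries lay above both solvent libraries, and the gap between the groups was wider than the spread within either. The means were 135.1 ± 39.7 CPM in HJ-23 and 21.7 ± 1.91 CPM in DMSO (SD, n = 2 each), a ratio of 6.22. The log2 fold change was 2.64 (SE 0.24), the 21st highest of the 14062 genes tested, with the GC and length trend left in. Because BBC3 was chosen on these values, the gap and the rank only describe them. In bulk RNA, more cells with the transcript and more transcript per cell cannot be told apart.

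The treated libraries differed from each other in BBC3 by 0.61 on the log2 scale, replicate 2 being higher. With 69.7% GC, the transcript is the most GC-rich of the 8, and the trend fitted over all genes gives, at its GC content and length, a difference of 0.36 between these libraries. With the trend removed, BBC3 was at 111 and 132 CPM in HJ-23 and 24.3 and 23.2 CPM in DMSO, and its log2 fold change was 2.35 (SE 0.12). In GENCODE 29, BBC3 exons overlap only MIR3190 and MIR3191, over 80 and 76 of 3180 exon bases.

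The promoter windows of BBC3 and BMF are shown because these are the members with the largest differences, in opposite directions. They run from 250 bases before to 50 bases after a RefSeq start site (GRCh38.p14), and capitals mark matches, on either strand, to the E-box and GC box searched below.
BBC3 promoter window, chr19:47232618-47232917, minus strand: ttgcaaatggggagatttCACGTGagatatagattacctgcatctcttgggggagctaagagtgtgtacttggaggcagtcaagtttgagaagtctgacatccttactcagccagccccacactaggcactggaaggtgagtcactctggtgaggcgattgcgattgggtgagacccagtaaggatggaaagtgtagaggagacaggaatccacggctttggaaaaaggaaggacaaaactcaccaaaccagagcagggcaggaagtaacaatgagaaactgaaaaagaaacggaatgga
BMF promoter window, chr15:40108830-40109129, minus strand: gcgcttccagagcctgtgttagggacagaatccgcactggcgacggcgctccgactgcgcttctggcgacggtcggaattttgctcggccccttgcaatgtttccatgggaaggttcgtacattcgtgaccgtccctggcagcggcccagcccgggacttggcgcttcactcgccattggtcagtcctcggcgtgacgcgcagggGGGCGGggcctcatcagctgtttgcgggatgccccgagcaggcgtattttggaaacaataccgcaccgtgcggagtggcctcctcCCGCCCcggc
Promoter windows were present for 7 members, 13 windows in all. Searches covered both strands and used TGATGNAAT for the ATF4 composite element, GTAAACA for forkhead factors, CACGTG for the E-box and GGGCGG for the GC box. Of all 35116 promoter windows, 0.991% held the ATF4 element, 3.42% the forkhead motif, 7.26% the E-box and 45.0% the GC box. The BBC3 window, with 48.0% GC against 65.0% in the BMF window shown, held 1 E-box and no match to the other 3 motifs. BID was the other member with an E-box, in 2 of its 5 windows. The BMF window shown held 2 GC boxes, and a second BMF window, with 50.3% GC, held no match. Every member with a window other than BBC3 had a GC box, up to 4 in a window for PMAIP1 and BID. BCL2L11 was the only member with a forkhead match. A start site other than the one listed has a different window. A match, or none, says nothing of binding.

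**Figure D1:**
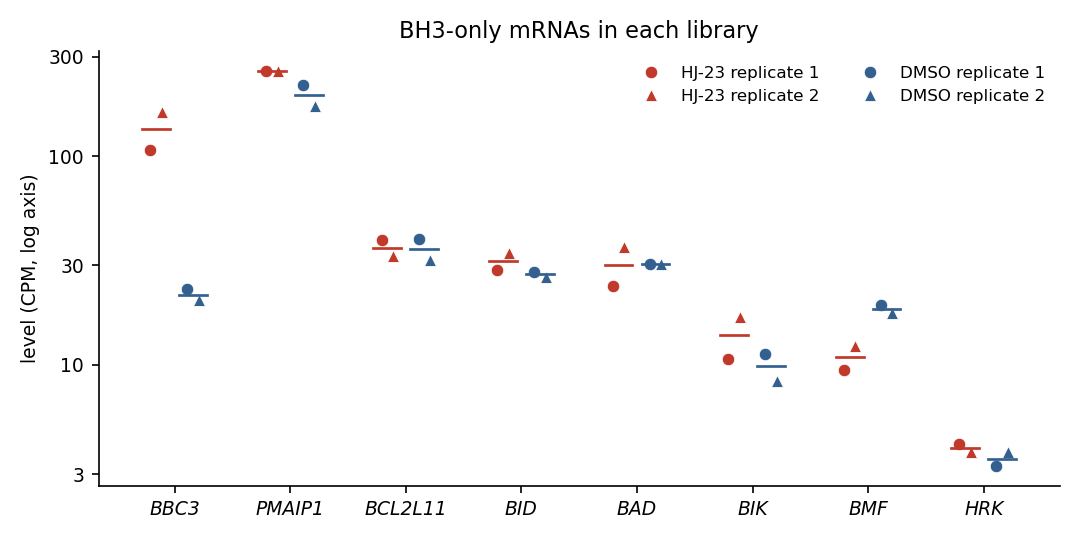
Level of each BH3-only mRNA in CPM on a log axis, with 2 HJ-23 libraries (red) left of 2 DMSO libraries (blue) for each gene and a line at the group mean. BBC3 lies at 107 and 163 CPM in HJ-23 and 23.1 and 20.4 CPM in DMSO, and BMF lies lower in both HJ-23 libraries. The HJ-23 means of the other genes are between 0.991 (BAD) and 1.40 (BIK) times their DMSO means.

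PMAIP1 (ENSG00000141682) encodes NOXA, an ATF4 target that binds mainly MCL1 and BCL2A1. It was the most abundant member, with 255.9 and 257.1 CPM in HJ-23 libraries and 219.5 and 175 CPM in DMSO libraries. The groups did not overlap, but DMSO replicate 1 lay nearer to the treated libraries than to the other DMSO library. The log2 fold change was 0.38 (SE 0.16), and 0.48 (SE 0.21) with the GC and length trend removed.

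BCL2L11 (ENSG00000153094) encodes BIM, a direct activator of BAX and BAK1 that forkhead factors induce and ERK signalling marks for degradation. It had 39.5 and 33.3 CPM in HJ-23 libraries, against 39.9 and 31.7 CPM in DMSO libraries. The groups overlapped almost completely, and the log2 fold change was 0.022 (SE 0.19). Of its 6658 exon bases, 727 overlap MIR4435-2HG on the opposite strand.

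BID (ENSG00000015475), which links death receptors to mitochondria once caspase 8 has cut it, had 28.4 and 34.3 CPM in HJ-23 libraries and 28.0 and 26.3 CPM in DMSO libraries. HJ-23 replicate 1 lay next to DMSO replicate 1, and the log2 fold change was 0.21 (SE 0.18). With the GC and length trend removed the values were 28.4 and 33.7 CPM in HJ-23 and 28.6 and 26.2 CPM in DMSO, and the groups overlapped.

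BAD (ENSG00000002330), a sensitizer held by 14-3-3 proteins while survival kinases phosphorylate it, had 23.8 and 36.6 CPM in HJ-23 libraries and 30.4 and 30.6 CPM in DMSO libraries. The treated libraries lay on either side of the DMSO pair, and the log2 fold change was -0.013 (SE 0.24). With the GC and length trend removed the values were 25.2 and 29.2 CPM in HJ-23 and 31.7 and 34.8 CPM in DMSO. On that scale both treated libraries were below both DMSO libraries, with a log2 fold change of -0.29 (SE 0.13). Of the 1708 exon bases of BAD, 404 overlap exons of GPR137 on the other strand, and since the strand setting of the counting is not given, reads there cannot be assigned with certainty. GPR137 had 283 and 353 counts in HJ-23 and 352 and 300 counts in DMSO.

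BIK (ENSG00000100290), an endoplasmic reticulum and mitochondrial sensitizer, had 10.7 and 17.0 CPM in HJ-23 libraries and 11.3 and 8.41 CPM in DMSO libraries. HJ-23 replicate 1 lay within the DMSO range and replicate 2 above it, so the groups overlapped, with a log2 fold change of 0.49 (SE 0.29).

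BMF (ENSG00000104081), a sensitizer kept at the actin and myosin V cytoskeleton by a dynein light chain, was lower in treated cells. It had 9.51 and 12.3 CPM in HJ-23 libraries, against 19.4 and 17.7 CPM in DMSO libraries, from 337 and 423 counts in HJ-23 and 604 and 518 counts in DMSO. Both treated libraries lay below both DMSO libraries, and the means were 10.9 ± 1.97 CPM in HJ-23 and 18.6 ± 1.23 CPM in DMSO (SD, n = 2 each), a ratio of 0.587. The log2 fold change was -0.77 (SE 0.20), and -0.86 (SE 0.15) with the trend removed. Its exons overlap the antisense gene BMF-AS1 over 461 of 5447 bases, and reads from the opposite strand cannot be told apart there.

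HRK (ENSG00000135116), a sensitizer known mainly from neurons, was the least abundant member. It had 148 and 131 counts in HJ-23 libraries and 102 and 112 counts in DMSO libraries, or 4.17 and 3.81 CPM in HJ-23 and 3.28 and 3.83 CPM in DMSO. The groups overlapped, and the log2 fold change was 0.17 (SE 0.22).

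**Figure D2:**
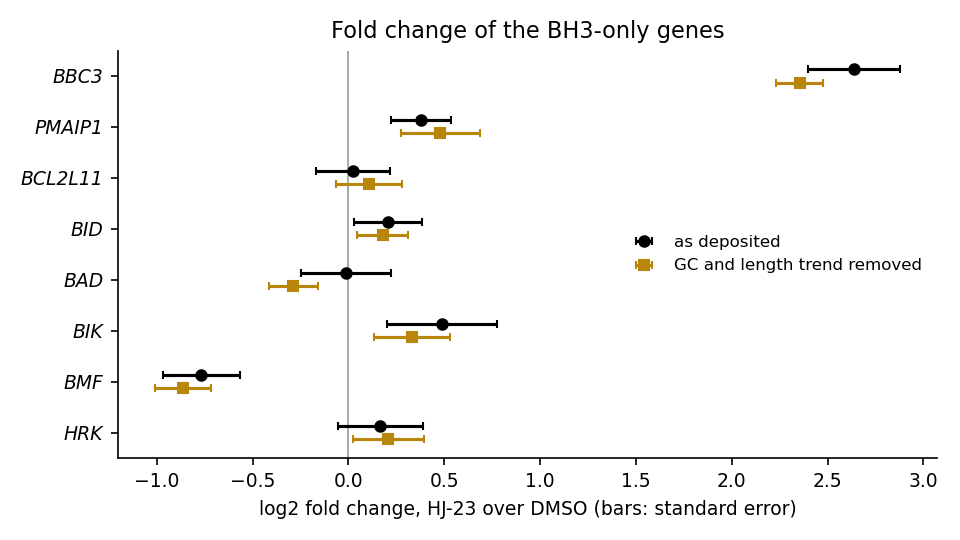
Log2 fold change of HJ-23 over DMSO for the 8 genes with its standard error, as deposited (black circles) and with the GC and length trend removed (gold squares). BBC3 stands at 2.64 and 2.35, BMF at -0.77 and -0.86, and the other genes lie between -0.29 and 0.49.

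Across the whole table, edgeR's quasi-likelihood test called 12 of 14062 genes at an adjusted p under 0.05, or 0.0853%, with 0.0569% higher and 0.0284% lower in HJ-23. Among the 8 members BBC3 was called, and the other 7 were not. Because BBC3 was chosen on these values, its call is part of the description. That call was lost without HJ-23 replicate 1 or replicate 2, where the log2 fold change of BBC3 was 2.89 or 2.28. DESeq2 called the same 1 of 8, beside 2.31% of its genes. At an unadjusted p under 0.05 edgeR had BBC3 higher and BMF lower, beside 6.77% of all genes higher and 5.25% lower. A log2 fold change above 0 was seen for 6 of 8 members and for 51.0% of all genes. The groups did not overlap for 4 of 8 members (BBC3, PMAIP1 and BID above, BMF below), beside 46.0% of all genes tested, 24.8% above and 21.2% below. With the GC and length trend removed BID overlapped, while HRK lay above and BAD below without overlap. The 46.0% is for values with the trend left in, and the share of all genes without it was not worked out. The median log2 fold change was 0.19 over the members and 0.0086 over all genes tested. These shares are given for scale, here and for the gene lists below, and nothing is read from them.

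**Figure D3:**
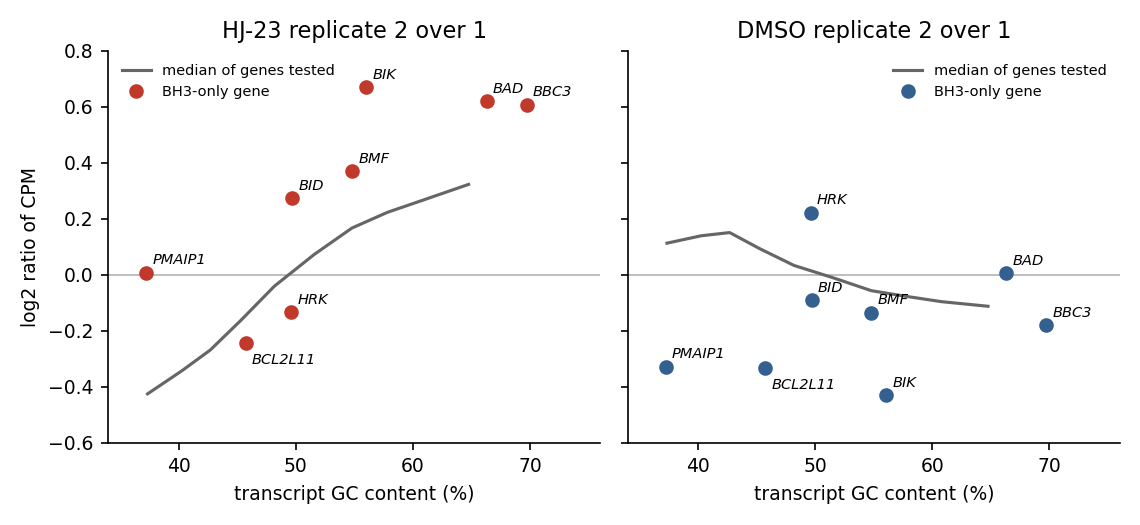
Log2 ratio of replicate 2 over replicate 1 against transcript GC content for HJ-23 (left) and DMSO (right), with each BH3-only gene as a point and the median of the tested genes in 10 GC bins as a line. In HJ-23 the GC-rich members BBC3, BAD and BIK lie at 0.61, 0.62 and 0.67, while BCL2L11 lies at -0.24.

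The spread between libraries of a group was itself uneven among the members. BBC3, BAD and BIK, the members with the highest GC content at 69.7%, 66.3% and 56.0%, had the largest ratios of HJ-23 replicate 2 over replicate 1, between 0.61 and 0.67 on the log2 scale. BMF, at 54.8% GC, had a ratio of 0.37, and BID, at 49.7%, one of 0.27. HRK, BCL2L11 and PMAIP1, with 49.6%, 45.7% and 37.2% GC, had -0.13, -0.24 and 0.0072. The fitted trend of all genes was 0.36 for BBC3, 0.41 for BAD and 0.30 for BIK, smaller than these members' own ratios. Between the DMSO libraries the members' ratios ran from -0.43 (BIK) to 0.22 (HRK).

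Levels of different genes were compared per kb of annotated exon (CPM per kb). In HJ-23 libraries the order was PMAIP1 at 114.8 ± 0.405, BBC3 at 42.5 ± 12.5, BAD at 17.7 ± 5.29, BIK at 14.5 ± 4.68, BID at 7.05 ± 0.940, BCL2L11 at 5.47 ± 0.651, BMF at 2.00 ± 0.362 and HRK at 0.582 ± 0.0380 CPM per kb (SD, n = 2). The ranges of BAD and BIK overlapped across libraries, but BAD was above BIK within each HJ-23 library, at 13.95 and 11.2 CPM per kb in replicate 1 and 21.4 and 17.8 in replicate 2. Divided by the longest coding transcript, their ranges did not overlap. In DMSO libraries the order was PMAIP1 at 88.2 ± 14.1, BAD at 17.85 ± 0.0579, BIK at 10.4 ± 2.17, BBC3 at 6.83 ± 0.602, BID at 6.11 ± 0.268, BCL2L11 at 5.38 ± 0.874, BMF at 3.41 ± 0.225 and HRK at 0.519 ± 0.0562 CPM per kb (SD, n = 2). There the ranges of BID and BCL2L11 overlapped, with BID above BCL2L11 within each library. In DMSO, PMAIP1, BAD and BIK were thus above BBC3, and in HJ-23 only PMAIP1 was. Divided by the longest coding transcript instead, BBC3 was at 73.5 CPM per kb in HJ-23 and 11.8 CPM per kb in DMSO, below PMAIP1 in HJ-23 and below PMAIP1 and BAD in DMSO.

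Summed over the 8 members, the level was 188 and 221 CPM per kb in HJ-23 libraries and 152 and 126 CPM per kb in DMSO libraries. BBC3 made up 17.9% and 23.2% of that sum in HJ-23, against 4.79% and 5.09% in DMSO. PMAIP1 made up 60.9% and 52.0% in HJ-23 and 64.8% and 62.2% in DMSO. Without BBC3 the sums were 154 and 169.9 CPM per kb in HJ-23 and 144 and 119 CPM per kb in DMSO, and the groups still did not overlap. Without PMAIP1 as well they were 39.8 and 54.8 CPM per kb in HJ-23 and 46.0 and 41.2 CPM per kb in DMSO, and the groups of the other 6 members overlapped. With the longest coding transcript as length, the BBC3 share was 24.0% and 30.2% in HJ-23 and 6.71% and 7.05% in DMSO.

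**Figure D4:**
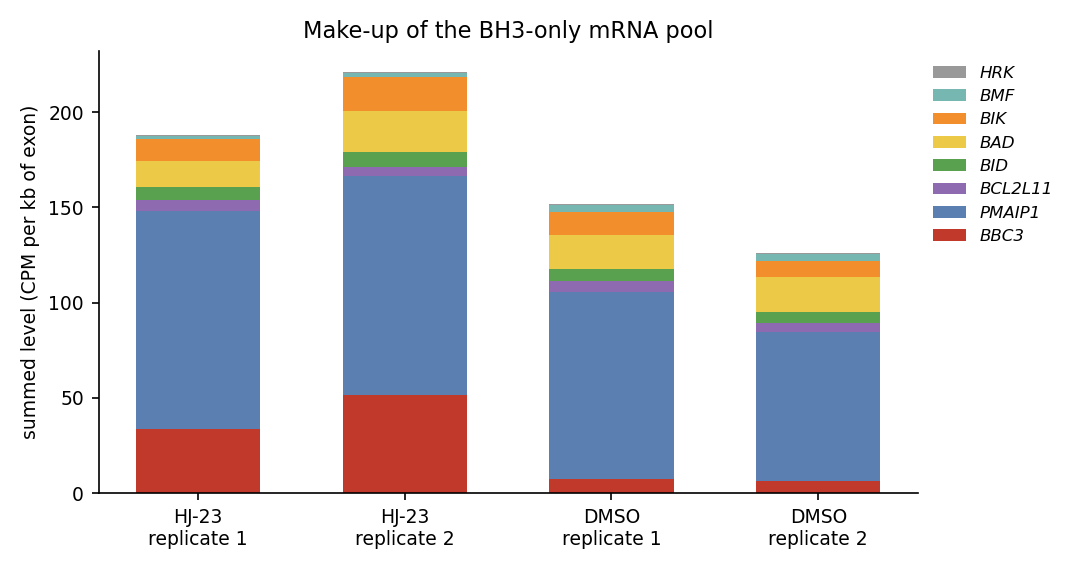
Summed level of the 8 BH3-only mRNAs in CPM per kb of annotated exon in each library, stacked by gene, with the HJ-23 libraries left of the DMSO libraries. BBC3 (bottom, red) takes 17.9% and 23.2% of the bar in HJ-23 and 4.79% and 5.09% in DMSO, and PMAIP1 is the largest part in all 4 libraries.

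Among 10061 protein-coding genes with a named symbol and a mean of at least 10 CPM, the 5 with the profile nearest to that of BBC3 were TMEM250, ATF5, GDF15, ZFP90 and ST6GAL1. Likeness was the Euclidean distance between centred log2 CPM values over the 4 libraries, with the GC and length trend left in. The distances were 0.183, 0.392, 0.406, 0.559 and 0.937 in that order. How far the trend adds to the likeness was not tested. TMEM250, a predicted membrane protein, had 44.0 and 57.7 CPM in HJ-23 libraries and 8.17 and 7.96 CPM in DMSO libraries. ATF5, a stress-response transcription factor, had 16.6 and 19.0 CPM in HJ-23 and 3.25 and 3.04 CPM in DMSO. GDF15, a secreted stress cytokine, had 616 and 826 CPM in HJ-23 and 161 and 149 CPM in DMSO. ZFP90, a zinc finger protein, had 16.8 and 19.1 CPM in HJ-23 and 3.35 and 3.83 CPM in DMSO. ST6GAL1, a sialyltransferase, had 20.1 and 22.0 CPM in HJ-23 and 5.95 and 6.12 CPM in DMSO. With 4 libraries in 2 groups a correlation separates little: 1335 genes had a Pearson r of at least 0.9 with BBC3, and the 5 highest by r included none of these 5.

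Of the 6 listed guardians that BH3-only proteins bind, 4 passed the filter. EdgeR called 0 of these 4 (0 at an unadjusted p under 0.05, 0 by DESeq2), with a median log2 fold change of 0.26. Beside 0.0853% of all genes called by edgeR, nothing is read from 0 of 4. BCL2L1 (BCL-XL) had 246 and 335 CPM in HJ-23 libraries and 242 and 239.7 CPM in DMSO libraries, with a log2 fold change of 0.27 (SE 0.18). MCL1, the short-lived guardian that NOXA targets, had 417 and 411 CPM in HJ-23 and 515 and 463 CPM in DMSO, with a log2 fold change of -0.24 (SE 0.13). BCL2 was low, at 4.29 and 5.52 CPM in HJ-23 and 3.89 and 4.41 CPM in DMSO. BCL2L2 (BCL-w) had 65.0 and 77.0 CPM in HJ-23, against 13.7 and 61.5 CPM in DMSO. DMSO replicate 1 stood far below the other 3 libraries, and the log2 fold change was 0.92 (SE 0.71). The readthrough gene BCL2L2-PABPN1 was at 4.17 and 2.53 CPM in HJ-23 and 4.96 and 1.91 CPM in DMSO and can share its reads. BCL2A1 and BCL2L10 had at most 7 counts in a library.

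Among the 3 pore-forming effectors edgeR called 0 (1 at an unadjusted p under 0.05, 0 by DESeq2), with a median log2 fold change of 0.35. Nothing is read from 0 of 3 either. BAX had 74.6 and 107 CPM in HJ-23 libraries and 57.5 and 47.7 CPM in DMSO libraries (log2 fold change 0.79, SE 0.22, adjusted p = 0.309, edgeR). BAK1 had 39.4 and 54.2 CPM in HJ-23 and 40.8 and 35.2 CPM in DMSO, and the groups overlapped. BOK had 33.1 and 44.5 CPM in HJ-23 and 31.5 and 29.3 CPM in DMSO. All 3 are GC-rich, and with the trend removed the log2 fold changes of BAX, BAK1 and BOK were 0.60, 0.11 and 0.096. Per kb of exon, the summed BH3-only level was 1.01 and 1.03 times the summed guardian level in HJ-23 libraries and 0.779 and 0.651 times in DMSO libraries. The BH3-only sum includes BBC3, on whose level the set was chosen. BBC3 made up 17.9% and 23.2% of it in HJ-23 and 4.79% and 5.09% in DMSO. The guardian sums were 186 and 214 CPM per kb in HJ-23 and 195 and 193 CPM per kb in DMSO.

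Of 10 other proteins with a BH3 or BH3-like motif, 9 were tested, 0 were called higher and 1 was called lower by edgeR (4 at an unadjusted p under 0.05, 2 lower and 0 higher by DESeq2), with a median log2 fold change of 0.089. The called gene was BNIP3L, a receptor for the removal of mitochondria, which fell to 44.1 and 40.6 CPM in HJ-23 libraries, against 155 and 178 CPM in DMSO libraries (log2 fold change -1.98, SE 0.15, adjusted p = 0.0304, edgeR). Its relative BNIP3 had 109 and 86.2 CPM in HJ-23 and 187 and 175 CPM in DMSO (log2 fold change -0.89, SE 0.17, adjusted p = 0.206 by edgeR). DESeq2 called it.

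Of a list of transcription factors known to act on BH3-only genes, which also holds the pseudokinase TRIB3, 17 of 18 were tested and edgeR called 0 (5 at an unadjusted p under 0.05, 2 higher by DESeq2), with a median log2 fold change of 0.41. ATF4, which drives the integrated stress response, had 962 and 1019 CPM in HJ-23 and 644 and 608 CPM in DMSO (log2 fold change 0.66, SE 0.13, adjusted p = 0.229 by edgeR). DESeq2 called it. DDIT3 (CHOP), which ATF4 induces, had 101 and 189 CPM in HJ-23 and 86.3 and 63.2 CPM in DMSO (log2 fold change 0.96, SE 0.32, adjusted p = 0.362, edgeR). FOXO3, which induces BCL2L11 and BBC3 in other settings, had 165 and 167 CPM in HJ-23 and 203 and 183 CPM in DMSO, with a log2 fold change of -0.22 (SE 0.13). TRIB3, a cofactor induced by ATF4 and CHOP rather than a DNA-binding factor, had 155 and 119.8 CPM in HJ-23 and 64.0 and 55.8 CPM in DMSO (log2 fold change 1.20, SE 0.18, adjusted p = 0.138 by edgeR). It was the other gene that DESeq2 called. ATF3 had 81.4 and 199 CPM in HJ-23 and 95.5 and 45.3 CPM in DMSO, with overlapping groups.

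Of 11 targets of ATF4 and CHOP, all were tested and edgeR called 0 (9 at an unadjusted p under 0.05, 7 higher by DESeq2), with a median log2 fold change of 0.995. CHAC1, which degrades glutathione, had 15.1 and 25.4 CPM in HJ-23 libraries and 8.69 and 4.37 CPM in DMSO libraries (log2 fold change 1.63, SE 0.40, adjusted p = 0.278, edgeR). PPP1R15A, which directs dephosphorylation of eIF2-alpha, had 333 and 397 CPM in HJ-23 and 140.5 and 135 CPM in DMSO (log2 fold change 1.40, SE 0.15, adjusted p = 0.0695, edgeR). With the GC and length trend removed, edgeR called 2 genes of the list, PPP1R15A (adjusted p = 0.0186) and ASNS (adjusted p = 0.0235). Over all 14062 genes tested, 21 were then called higher and 13 lower. The list shares DDIT3, ATF4, ATF3 and TRIB3 with the list of factors, so these lists are not separate evidence. CDKN1A, the cell cycle inhibitor p21, had 468 and 660.0 CPM in HJ-23 and 289.6 and 231 CPM in DMSO (log2 fold change 1.12, SE 0.22, adjusted p = 0.218 by edgeR). It belongs to no list counted here, and DESeq2 called it (adjusted p = 0.000944).

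**Figure D5:**
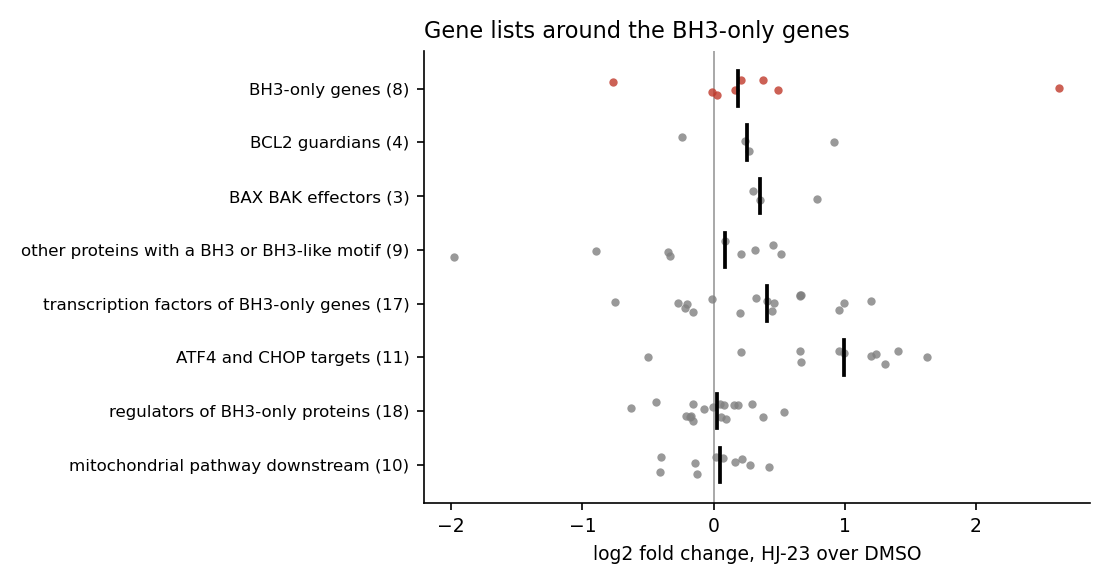
Log2 fold change of HJ-23 over DMSO for each tested gene of the BH3-only set (red) and of 7 related lists (grey), with the number tested in brackets and a black line at the list median. BBC3, at 2.64, lies to the right of every other gene shown, and BNIP3L, at -1.98, lies at the left end.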

How the data were processed

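RNA-seq counts per Ensembl gene were analysed for 4 libraries. The authors deposited whole-number counts, 1 table per library, without normalization, as the values show. RSEM, HISAT2, bedtools, Trimmomatic and FastQC are named in the submitters' processing notes, with no versions or roles. The counting step, its strand handling and its build were not given in the sources used here. The sample titles gave the groups and replicate numbers. In the file headers the HJ-23 libraries carry the letter C and the DMSO libraries the letter D. The labels do not explain the letters, so every direction rests on the titles and treatment field. A supplied symbol table named 20148 identifiers and GENCODE 29 another 76.

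In R 4.3.3, edgeR 4.0.16 was run on the counts with filterByExpr (14062 genes kept), TMM scaling, robust dispersions (2 residual degrees of freedom), legacy quasi-likelihood F-tests and Benjamini-Hochberg adjustment over all genes tested, with a threshold of 0.05. DESeq2 1.42.0 was an alternative. Log2 fold changes (HJ-23 over DMSO) were fitted to the deposited counts, and each SE was derived from its F statistic. CPM is the count over the TMM-scaled library size. The GC and length trend of each library was fitted with mgcv 1.9.3, using the GC content and length of each gene's longest coding transcript. In CPM per kb, length is the union of GENCODE 29 exons unless the longest coding transcript is named. The fits were tested on simulated data. No pair of libraries held the same counts.

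The members and lists were chosen with earlier results of these data known. Named genes were all members, all guardians and effectors, and DDIT3, ATF4, FOXO3 and CDKN1A; 1 further gene and the results tied to it are not reported here. From each list, called genes and the 2 with the largest change among those at a mean of at least 10 CPM were added, as were the 5 profiles nearest BBC3 (pseudocount 0.5 CPM). ASNS and DYNLL2 were named after their values were seen. Other settings covered scaling, filters, tool, GC and length, halved counts, replicate block, gene length and leaving out each library.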

Additional observations from a re-analysis of the deposited data

How the results depend on the processing

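As a description, since BBC3 was chosen on these values, its log2 fold change was positive under all 16 alternatives for it. Its call was lost with the filter at a mean of 10 CPM (2.63) and with the replicate block plus the GC and length offsets (2.35). Leaving out libraries, with or without those offsets, gave 2.22 to 2.89. The call was lost without HJ-23 replicate 1 (2.89, or 2.47 with the offsets) and without replicate 2 (2.28, or 2.22), where no gene in the table was called; the lone treated library is assumed there to vary like the DMSO pair. BBC3 was called in the other 10 alternatives. The number of members called was 0 in each of those lost cases.

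The number of genes called over the whole table also depended on the setting. Higher and lower calls were 161 and 150 with DESeq2, 21 and 13 with GC and length offsets, 18 and 13 with no filter, and 136 and 158 with the replicate block. They were 0 and 0 with the filter at 10 CPM (1253 genes at an unadjusted p under 0.05) and with the block plus offsets (1538 genes), both in edgeR. Leaving out libraries gave 0 to 112 higher and 0 to 161 lower, the 0 being from edgeR with 1 HJ-23 library (1377 to 3501 genes at an unadjusted p under 0.05). The cause of these shifts was not tested. Deviations of same-numbered libraries from their group means had a weak negative correlation across genes (-0.237), and replicate numbers were not taken as pairs. The difference of replicate 2 minus 1 also went with GC content in opposite directions (Spearman correlation -0.357 in DMSO, 0.644 in HJ-23). The correlation therefore cannot tell whether same-numbered libraries were handled together. With crossed pairing, chosen after seeing the data, 454 genes were higher, 512 lower and 2 members called, BBC3 and BMF.

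BAD changed sign with total-count library sizes (0.0081) and without HJ-23 replicate 1 (0.245), over a range of -0.399 to 0.245 when libraries were left out (-0.379 without HJ-23 replicate 2). BCL2L11 was negative when HJ-23 replicate 1 (-0.124) or DMSO replicate 2 (-0.158) was left out, and reached 0.198 without DMSO replicate 1. PMAIP1, BID, BIK, HRK and BMF kept their sign in every alternative that gave a value; HRK gave none with the filter at 10 CPM. Of those alternatives, BMF was called in 1, the crossed pairing, with a range of -0.99 to -0.61. With 2 libraries a group, an exact permutation test of a single gene cannot go below p = 0.333.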

Other observations

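Among 18 genes that act on BH3-only proteins after translation, edgeR called 0 (2 at an unadjusted p under 0.05, 0 by DESeq2). Their median log2 fold change was 0.023. Across all genes tested, edgeR called 0.0853% and DESeq2 2.31%. At an unadjusted p under 0.05, edgeR had 6.77% of all genes higher and 5.25% lower. Beside these shares, nothing is read from the absence of a call among the 18. The list holds caspase 8, the kinases that phosphorylate BAD and BIM, 14-3-3 proteins and the dynein light chains. YWHAB, a 14-3-3 protein, had 173.5 and 54.0 CPM in HJ-23 libraries and 172.6 and 178.5 CPM in DMSO libraries. HJ-23 replicate 2 stood far below the others, and the log2 fold change was -0.63 (SE 0.56). PIM3, a survival kinase that phosphorylates BAD, had 265 and 344 CPM in HJ-23 and 223 and 197 CPM in DMSO (log2 fold change 0.54, SE 0.17). DYNLL2, which binds BMF, had 283 and 313 CPM in HJ-23 and 294 and 277 CPM in DMSO and was named after its values were seen.

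For 10 genes of the steps after membrane opening, edgeR called 0 (0 at an unadjusted p under 0.05, 0 by DESeq2). Their median log2 fold change was 0.047. Beside 0.0853% of all genes called by edgeR and 2.31% by DESeq2, nothing is read from 0 of 10. CASP9, the initiator caspase of the apoptosome, had 17.5 and 21.7 CPM in HJ-23 libraries and 12.7 and 16.6 CPM in DMSO libraries (log2 fold change 0.42, SE 0.215). CYCS, cytochrome c, had 129.8 and 189 CPM in HJ-23 and 219.9 and 202 CPM in DMSO (log2 fold change -0.40, SE 0.20).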
